A study of Mus with 2 samples.

Results

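The genes described here were 9 inflammatory genes of the interleukin 1 (IL-1) and tumor necrosis factor (TNF) class, namely *Il1b*, *Il1a*, *Il1rn*, *Tnf*, *Il6*, *Il18*, *Nlrp3*, *Ptgs2* and *Clec4e*. They were taken by name from the 32285 features of the deposited tables, and all 9 were found. The tumors grew from CT26, a mouse colon carcinoma cell line, placed under the skin of balb/c mice that were 6-8 weeks old, and were collected on day 15. The rIL7 group received 10 µg of recombinant mouse IL-7 into the peritoneum on days 11 and 13, and the control group received PBS. Each group held 1 tumor section, 10 µm thick, so every difference below is between 2 sections with no replicate check, and no p-value is given.

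The assay was Visium, in which RNA of a frozen section binds to a grid of barcoded spots and molecules are told apart by unique identifiers (UMIs). Several cells of mixed types can share 1 spot, so more cells of a type and more RNA per cell cannot be told apart. After filtering, 2219 control spots held 22951678 UMIs and 1950 rIL7 spots held 25729233 UMIs, with a median spot of 9623 and 12921.5 UMIs, respectively. Levels are UMIs per 1000000 UMIs of the section (CPM), and intervals are 95% intervals of counting error alone. Each section was also cut at its median array row and column into 4 quadrants, which show spread within a section and are not replicates. The CT26 markers *Rpl39l* and *Baiap2l1* were present in both sections and summed to 1293 and 1043 CPM. The sections also differed in other tissue. A list of 7 skeletal muscle genes summed to 75.5 CPM in control and to 7.03 CPM in rIL7 tissue, and most of it in control lay away from the tissue outline (89.0 CPM, against 20.4 CPM near it). The keratinocyte genes *Krt5* and *Krt14* had 196 and 250 UMIs in control and 0 and 1 in rIL7 tissue, while *Krt10* had 895 and 966.

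IL-1β and IL-1α are agonists of the IL-1 receptor, and the antagonist encoded by *Il1rn* occupies the same receptor without signaling. IL-1β and IL-18 are made as precursors that caspase-1 cleaves once an inflammasome such as NLRP3 has assembled, whereas TNF is shed from the cell surface and acts on receptors of its own. Signals from these receptors reach NF-kB, a transcription factor that drives *Il6*, *Ptgs2* and many chemokine genes, mostly in macrophages, monocytes, neutrophils and stromal cells of a tumor.

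All 9 genes had a higher CPM in rIL7 tissue than in control tissue. Of these, 6 were at least 1.5-fold higher, against 5.98% of the 12988 genes that had at least 50 UMIs in both sections together, and none was 1.5-fold lower (4.15% of genes). With every spot weighted equally 3 were at least 1.5-fold higher, namely *Il1a*, *Nlrp3* and *Ptgs2*. Over whole sections the median log2 ratio of the 9 genes was 0.72, beside -0.0019 over all genes tested. In 2 of the 9, *Il1a* and *Il1rn*, every rIL7 quadrant was above every control quadrant, which held for 10.2% of genes, and none had the reverse order (10.3% of genes). Among all genes tested, 49.6% were higher in rIL7 tissue.

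*Il1b*, on chr2:129364569-129371164 of GRCm38, was the most abundant of the set and gave 60.3% of the set's 5029 UMIs in control and 54.3% of 7909 in rIL7 tissue. It had 3030 UMIs in control and 4296 in rIL7 tissue, which is 132 CPM (127 to 137) and 167 CPM (162 to 172). The ratio was 1.26 (1.21 to 1.33), and the quadrants overlapped, at 98.4 to 149 CPM in control and 141 to 203 CPM in rIL7 tissue. This gain was the smallest of any set member whose interval lay above 1. *Il1a*, its neighbor at chr2:129299609-129310186, had 6 UMIs in control and 53 in rIL7 tissue, a ratio of 7.88 (3.39 to 22.4). *Il1a* reached the minimum of 50 UMIs through the rIL7 section alone, so a difference between the sections was built into its selection.

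*Il1rn*, the receptor antagonist, at chr2:24336860-24351491, had 368 UMIs or 16.0 CPM in control and 678 UMIs or 26.4 CPM in rIL7 tissue. The ratio was 1.64 (1.45 to 1.87), with quadrants at 13.7 to 18.2 CPM and 24.6 to 29.6 CPM that did not overlap. The agonist *Il1b* therefore had 8.23 UMIs (7.39 to 9.20) for each *Il1rn* UMI in control tissue and 6.34 (5.84 to 6.88) in rIL7 tissue. Both agonist and antagonist were higher, and the antagonist by the larger factor.

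*Ptgs2* encodes cyclooxygenase-2, the inducible enzyme that opens prostaglandin synthesis, and lies at chr1:150100031-150108234. It had 985 UMIs or 42.9 CPM in control and 1902 UMIs or 73.9 CPM in rIL7 tissue, a ratio of 1.72 (1.59 to 1.86). Its quadrants spanned 33.3 to 60.2 CPM and 53.4 to 91.6 CPM and overlapped. *Il6*, a cytokine of fever and the acute phase, had 90 UMIs in control and 189 in rIL7 tissue, a ratio of 1.87 (1.45 to 2.44) with overlapping quadrants. For each *Tnf* UMI there were 0.520 *Il6* UMIs (0.399 to 0.675) in control and 0.892 (0.729 to 1.09) in rIL7 tissue.

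The sensor *Nlrp3* had 101 and 176 UMIs, a ratio of 1.55 (1.21 to 2.01). *Clec4e*, which encodes the receptor Mincle for cell damage products and mycobacterial glycolipids, had 105 and 196 UMIs, a ratio of 1.67 (1.31 to 2.13). In both genes the quadrants overlapped. The remaining cytokines showed no difference beyond counting error over whole sections. *Tnf* had 173 UMIs or 7.54 CPM and 212 UMIs or 8.24 CPM, a ratio of 1.09 (0.890 to 1.34), and *Il18* had 171 UMIs or 7.45 CPM and 207 UMIs or 8.05 CPM, a ratio of 1.08 (0.878 to 1.33).

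Ordered by level, *Il1b* stood first in both sections, followed by *Ptgs2* and *Il1rn*, with no overlap between their intervals. *Tnf* and *Il18* came next and could not be separated from each other in either section. *Clec4e*, *Nlrp3* and *Il6* had overlapping intervals of 3.15 to 5.54 CPM in control and 5.87 to 8.76 CPM in rIL7 tissue, where they also overlapped with *Tnf* and *Il18*. *Il1a* was last. Counts came from the 3′ end of transcripts, so no length correction was applied, and the order is one of captured molecules.

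**Figure D1:**
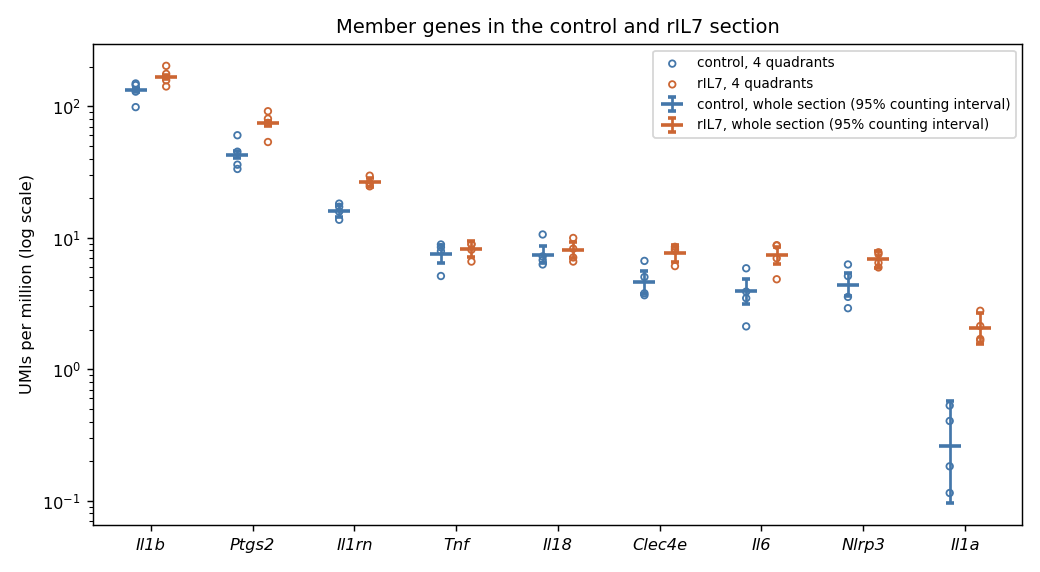
Level of each gene in CPM (log scale) in control tissue (blue) and rIL7 (orange) section. Bars mark whole sections with 95% counting intervals and open circles the 4 quadrants, which separate without overlap for *Il1rn* and *Il1a*.

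The share of spots with a UMI of a gene was read beside depth, which was higher in the rIL7 section. *Il1b* was seen in 65.6% of control spots and 79.1% of rIL7 spots, and *Ptgs2* in 33.2% and 49.7%. With every spot thinned to 5900 UMIs, which left out 217 control and 81 rIL7 spots, the shares were 49.1% and 57.6% for *Il1b* and 21.2% and 29.4% for *Ptgs2*. The gap was narrower at that depth for both genes. The spots left out included much of the shallow control groups high in *Il1b* and in *Ptgs2* that are described below. These shares therefore do not compare the sections at equal depth alone. *Il1rn* was expected in 8.47% and 13.8% of spots at that depth, and *Tnf* in 4.49% and 4.64%. The other members lay between 0.221% and 4.47% in control and between 1.32% and 4.71% in rIL7 tissue.

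Lists of cell type markers also differed between the sections, and their part in these results was not tested. A list of 12 neutrophil genes summed to 216 CPM in control and 428 CPM in rIL7 tissue, with quadrants from 122 to 367 and from 287 to 541 CPM. Of the 10 neutrophil genes tested, 5 were at least 1.5-fold higher, and the defining marker *Ly6g* had 0 UMIs in both sections. Among those 5, 1 had quadrants without overlap, *Mmp9*, at 47.3 and 134 CPM. Of the 10, 8 were higher at all, and *Cxcr2* and *Trem1* stood at 0.992 and 0.949. The 10 T cell genes, none at 0 UMIs, summed to 82.0 and 198 CPM (quadrants 60.8 to 108 and 146 to 250 CPM), and 9 of them were 1.5-fold higher. The 10 macrophage genes summed to 3662 and 4103 CPM (2539 to 4652 and 3014 to 5062 CPM), with 0 of 10 past 1.5-fold, and the 8 monocyte genes to 780 and 1061 CPM (656 to 849 and 878 to 1208 CPM), with 2 of 7.

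The position of the transcripts was then compared. Spots no more than 2 grid steps from the outer tissue outline were called edge (401 control and 330 rIL7 spots), and interior spots were the rest of the same piece (1806 and 1599). In the control section 0 of the 8 members with at least 50 UMIs were 1.5-fold higher at the edge (1.84% of genes), and *Clec4e* and *Il6* were 1.5-fold lower there (4.03% of genes). In the rIL7 section 4 of 9 were, namely *Tnf*, *Il18*, *Nlrp3* and *Il1a* (10.1% of genes), and none was 1.5-fold lower (8.29% of genes). As a log2 ratio of edge over interior, the median of the set was -0.18 in control and 0.58 in rIL7 tissue, beside -0.06 and -0.05 over all genes.

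*Tnf* showed the largest contrast. In the control section its edge held 26 UMIs or 5.82 CPM and its interior 147 UMIs or 7.99 CPM, a ratio of 0.727 (0.460 to 1.11). In the rIL7 section the edge held 81 UMIs or 20.6 CPM and the interior 130 UMIs or 6.01 CPM, a ratio of 3.43 (2.57 to 4.57). Thus 38.4% of the *Tnf* UMIs of the rIL7 tissue piece lay at its edge, compared with 15.0% in control tissue. Every edge quadrant of rIL7 tissue, at 14.6 to 30.3 CPM from 15 to 25 UMIs each, was above every control edge quadrant. Those of control tissue were at 4.63 to 6.96 CPM from 4 to 9 UMIs. The rIL7 edge quadrants were also above every interior quadrant of rIL7 tissue, at 3.70 to 6.83 CPM. The edge quadrants of the sections separated in the same way for *Il1b*, *Il1rn* and *Clec4e*. Edge and interior quadrants of rIL7 tissue did so for *Nlrp3*. The share of all genes with such separations was not counted.

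By distance, *Tnf* in rIL7 tissue was 17.6 CPM (12.1 to 24.9) at step 1 and 23.2 CPM (17.2 to 30.7) at step 2, and 5.65 to 6.66 CPM at every step range from 3 inward. The drop fell between step 2 and steps 3 to 4. No such step was seen in control tissue, where the values ran from 4.91 CPM at step 1 to 8.73 CPM at steps 3 to 4. Compared edge with edge, *Tnf* was 3.55-fold (2.26 to 5.75) higher in rIL7 tissue, while in the interior the ratio was 0.752 (0.589 to 0.958). Over whole sections these opposite differences gave the ratio of 1.09.

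*Clec4e* was the other gene whose position differed widely. In control tissue its edge level was 2.46 CPM and its interior level 5.06 CPM, a ratio of 0.486 (0.235 to 0.911), and 10.4 and 7.07 CPM in rIL7 tissue, a ratio of 1.48 (1.02 to 2.10). The control value rests on 11 edge UMIs and depends on where the edge ends, since with 3 grid steps its log2 ratio moved from -1.04 to -0.02. With 1 grid step the log2 ratio of rIL7 tissue moved from 0.56 to 0.03.

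*Il18* had a ratio of edge over interior of 1.30 (0.890 to 1.86) in control and 1.96 (1.41 to 2.69) in rIL7 tissue, and *Nlrp3* 1.28 (0.775 to 2.05) and 1.78 (1.23 to 2.53). The antagonist *Il1rn* was higher at the edge in both sections, at 1.29 (1.01 to 1.65) and 1.49 (1.23 to 1.80). *Il1b* moved from 0.884 (0.804 to 0.971) in the control to 1.18 (1.09 to 1.28), and *Ptgs2* from 0.916 (0.774 to 1.08) to 1.38 (1.23 to 1.55). *Ptgs2* at the rIL7 edge was uneven, since 229 of its 379 edge UMIs lay in 1 quadrant at 210 CPM and the other 3 quadrants held 32.8 to 83.7 CPM. Without that quadrant, left out after seeing the data, its rIL7 edge was at 53.0 CPM against 69.9 CPM inside, a ratio of 0.757 (0.636 to 0.896), so the direction turned. The rIL7 ratio of *Il1b* without the same quadrant was 1.09 with an interval that includes 1, and that of *Tnf* was 3.01 to 3.79 with any 1 edge quadrant left out. *Il6* was lower at the edge in both sections, at 0.633 (0.314 to 1.17) and 0.726 (0.443 to 1.14), with intervals that include 1.

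Divided into each other, the edge over interior ratios of the 2 sections gave 4.72 (2.86 to 7.79) for *Tnf*, 3.04 (1.49 to 6.20) for *Clec4e*, 1.51 (1.24 to 1.84) for *Ptgs2* and 1.34 (1.19 to 1.51) for *Il1b*. The intervals of the other 5 included 1, and the *Ptgs2* value rests on the 1 uneven quadrant. At the edge, all 9 members were at least 1.5-fold higher in the rIL7 than in control tissue (14.1% of genes), with *Il1b* at 1.61 (1.44 to 1.81). Of these, *Il6* at 2.09 (0.990 to 4.63) and *Il18*, just past 1.5-fold (0.982 to 2.31), had intervals that include 1, and *Il1a* had 1 control and 12 rIL7 edge UMIs. *Ptgs2* was at 2.41 (2.01 to 2.90), and at 1.32 (1.06 to 1.65) without the uneven quadrant. In the interior 4 were (5.08% of genes), namely *Il1a*, *Il1rn*, *Il6* and *Ptgs2*.

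Marker lists moved with position as well. In the rIL7 section the T cell list was 475 CPM in edge spots against 146 CPM inside, with 10 of 10 genes at least 1.5-fold higher, and the macrophage list 6990 and 3557 CPM, with 7 of 10. In the control section the T cell list was 100 and 77.4 CPM (0 of 8 genes) and the macrophage list 3999 and 3575 CPM (0 of 10). The 8 keratinocyte genes summed to 136 CPM at the control edge and 32.6 CPM at the rIL7 edge, of which *Krt10* gave 36.5 and 29.3 CPM. Median UMIs per spot were 10901 at the edge and 9482 in the interior of the control, and 11165.5 and 13162 in rIL7 tissue. The part of these in the edge values was not tested.

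**Figure D2:**
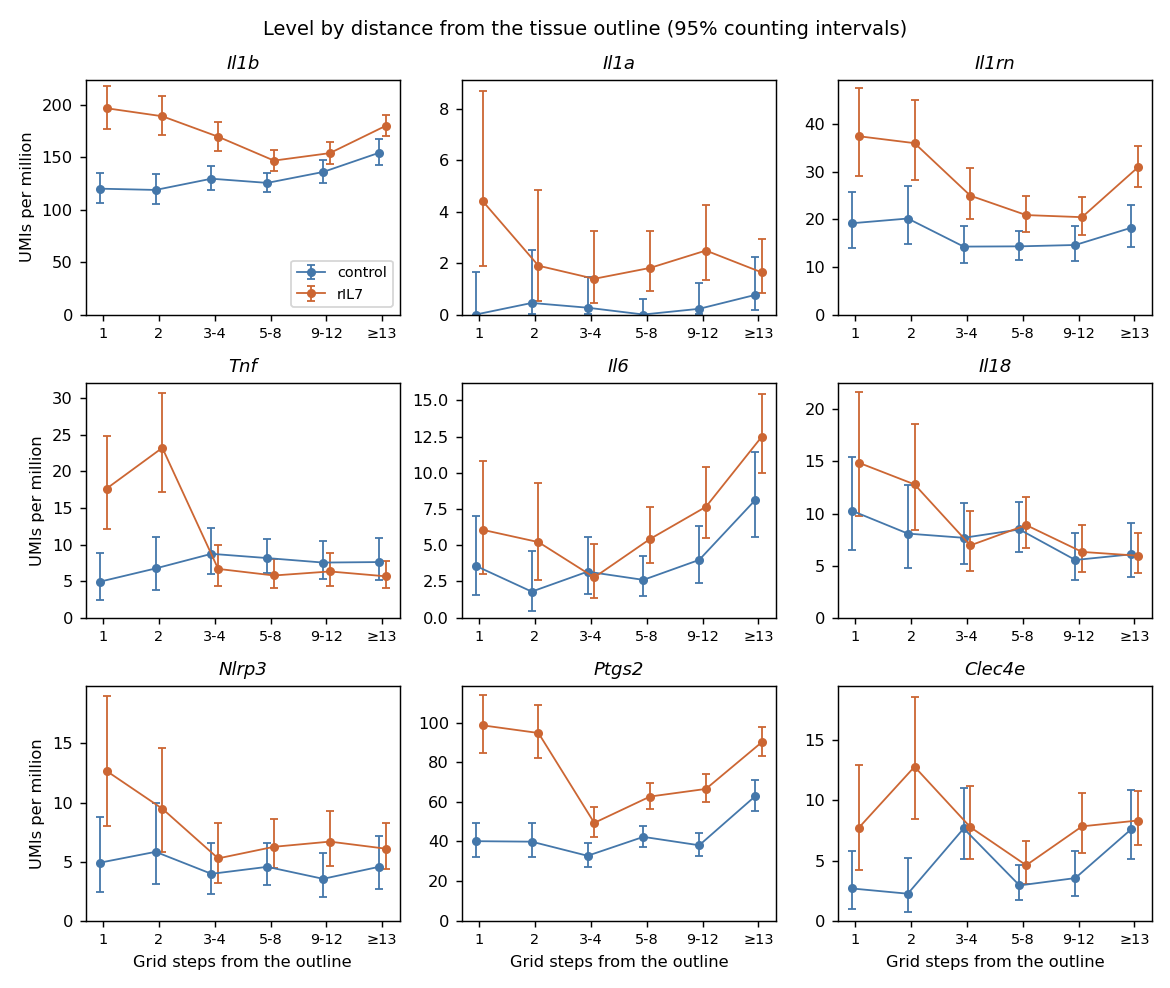
Level of each gene in CPM by grid steps from the tissue outline, in control tissue (blue) and rIL7 (orange) section, with 95% counting intervals. *Tnf* in rIL7 tissue is at 17.6 and 23.2 CPM at steps 1 and 2 and below 7 CPM further in, and *Il6* and *Ptgs2* are higher at 13 or more steps than at steps 3 to 4 in both sections.

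Deep in the tissue, *Il6* and *Ptgs2* were higher than at steps 3 to 4, a reference set after seeing the data. In control tissue steps 3 to 4 were the lowest range for *Ptgs2*. In rIL7 tissue they were the lowest range for both genes, with 10 UMIs of *Il6*. At steps 1 and 2 there, *Il6* was at 6.06 and 5.21 CPM and *Ptgs2* at 98.7 and 94.8 CPM. *Ptgs2* was thus not higher deep in rIL7 tissue than at its edge. From steps 3 to 4 to steps of 13 or more, *Il6* went from 3.17 to 8.10 CPM in control tissue, a ratio of 2.55 (1.28 to 5.45), and from 2.78 to 12.5 CPM in rIL7 tissue, a ratio of 4.50 (2.33 to 9.73). *Ptgs2* went from 32.8 to 62.8 CPM in control tissue, a ratio of 1.92 (1.54 to 2.40), and from 49.4 to 90.1 CPM in rIL7 tissue, a ratio of 1.82 (1.54 to 2.17). Those 2 genes were the members past 1.5-fold in rIL7 tissue (3.87% of genes). In the control section 3 members were (6.61% of genes), the last being *Il1a* with 1 and 3 UMIs in these ranges.

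*Ptgs2* in rIL7 tissue had 98.7 CPM at step 1, 49.4 CPM at steps 3 to 4 and 90.1 CPM at 13 or more steps, and its edge excess lay in the 1 quadrant named above. *Il1b* there had 197 CPM at step 1, 147 CPM at steps 5 to 8 and 180 CPM at 13 or more steps. In the control section *Il1b* lay between 119 and 136 CPM up to step 12 and at 154 CPM beyond. The neutrophil list went from 163 CPM at steps 3 to 4 to 371 CPM at 13 or more steps in control and from 359 to 513 CPM in rIL7 tissue. A list of 10 hypoxia genes went from 3191 to 3813 CPM and from 3072 to 4326 CPM, and the part of either list was not tested.

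How far each gene was gathered in few spots was described next. *Il1b*, which had most UMIs, took most spots, since 378 control spots (17.0%) and 375 rIL7 spots (19.2%) were enough to hold 50% of its UMIs, with a highest spot of 14 and 17 UMIs. The 1% of spots with most *Il1b* UMIs held 6.01% (5.19 to 6.91) and 5.98% (5.29 to 6.73) of them. For *Ptgs2* the 1% of spots with most UMIs held 11.5% (10.1 to 13.0) in rIL7 tissue and 8.22% (6.58 to 10.1) in control tissue. These intervals just overlap. By the other measure the sections were alike, since 244 control spots (11.0%) and 224 rIL7 spots (11.5%) held 50% of its UMIs. Its highest spot had 6 UMIs in control and 23 in rIL7 tissue, and spots with at least 5 UMIs numbered 3 and 61. Both counts can rise with the UMIs of the gene, which were 985 in control and 1902 in rIL7 tissue.

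The low genes were seen as scattered single molecules. Of the 182 rIL7 spots with *Tnf*, 155 held 1 UMI, and of the 161 with *Il6*, 139 held 1. The highest spot held 4 UMIs for either gene. Expected counts were set for each spot from its depth, and the mean squared departure from them, divided by the expectation, gave a dispersion index that is 1 for even sampling. Of the members with at least 50 UMIs, this index was at least 1.2 for 5 of 8 in control tissue and 4 of 9 in rIL7 tissue, against 5.19% and 7.81% of genes. One of the 5 was *Il6*, at 1.72, which stood at 1.04 among spots with more than 1000 genes. Thinned to 5900 UMIs per spot, with shallower spots left out, 1 and 2 members remained above 1.2. *Il1b* was at 1.26 in control, and *Il1b* was at 1.43 and *Ptgs2* at 1.57 in rIL7 tissue.

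Neighboring spots were compared by the Moran coefficient, which is near 0 when a spot is unrelated to its up to 6 grid neighbors and positive when high spots adjoin high spots. *Il1b* had 0.343 in control and 0.345 in rIL7 tissue, beside medians of 0.0188 and 0.0245 among genes with 0.5 to 2 times its UMIs. *Ptgs2* had 0.175 and 0.369, beside 0.00852 and 0.0139. *Ptgs2* also had more UMIs in rIL7 tissue. Thinned to 5900 UMIs per spot, an alternative added after seeing the data, *Il1b* had 0.117 and 0.207 and *Ptgs2* 0.0936 and 0.206, the latter from 494 and 791 UMIs. Thinning left out 217 control and 81 rIL7 spots under that depth. In control tissue the largest connected groups of spots high in *Il1b* and in *Ptgs2*, described below, had medians of 4564.5 and 5009 UMIs. Much of these groups was thus left out, so the thinned values do not compare the sections at equal depth alone. A coefficient of at least 0.05 was reached by 3 members in control tissue (8.65% of genes) and 6 in rIL7 tissue (12.2% of genes).

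*Il6* had a coefficient of 0.0205 in control and 0.127 in rIL7 tissue, *Il1rn* 0.0295 and 0.101, and *Tnf* 0.0128 and 0.0665. *Clec4e* had 0.0564 and 0.0511, while *Nlrp3*, *Il18* and, in rIL7 tissue, *Il1a* were at or below 0.0351. The coefficient depends on how many UMIs a gene has, and each of these genes had more in rIL7 tissue. At equal depth *Il6* had 0.0158 and 0.0750, *Il1rn* 0.00528 and 0.0444, and *Tnf* 0.0144 and 0.0130.

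**Figure D3:**
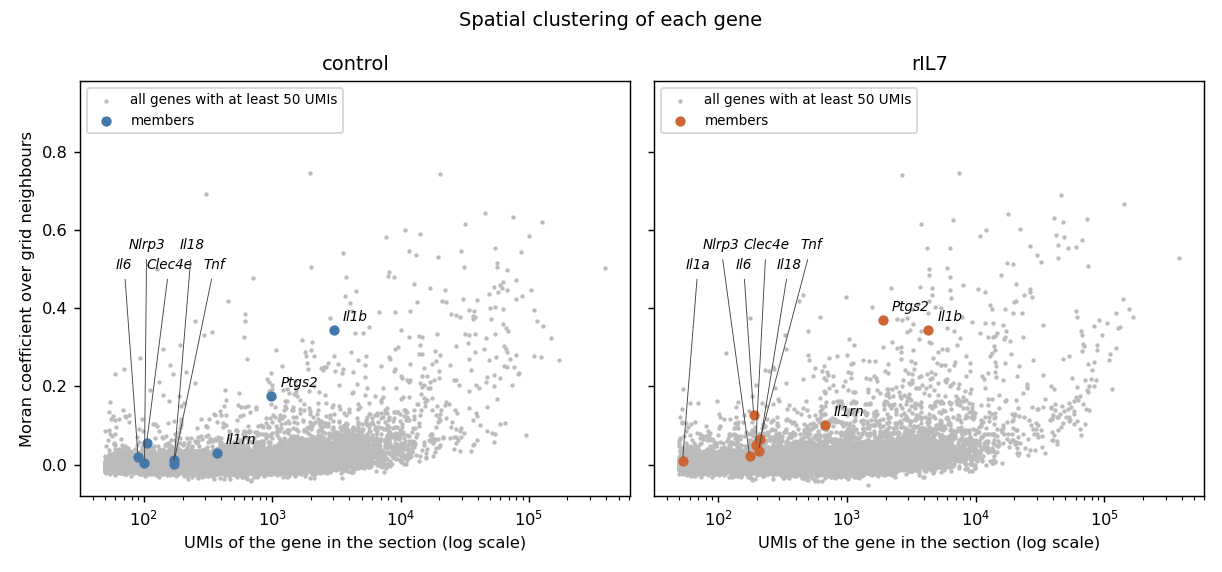
Moran coefficient over grid neighbors against the UMIs of the gene in the section (log scale), for all genes with at least 50 UMIs (gray) and the members (colored). *Il1b* lies far above genes of like UMIs in both sections, and *Ptgs2* is at 0.175 in control and 0.369 in rIL7 tissue.

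The maps of *Il1b*, *Ptgs2* and *Tnf* show where the high spots were. The 5% of spots with most *Il1b* per 10000 UMIs, called *Il1b*-high spots, were 111 in control and 98 in rIL7 tissue and held 16.7% and 16.9% of its UMIs. The last spot inside had 4.20 and the first outside 4.16 per 10000 UMIs in control tissue, and 4.66 and 4.64 in rIL7 tissue. In either section the fewest *Il1b* UMIs in an *Il1b*-high spot was 1, so a shallow spot could pass on 1 molecule. In the control section 48 of the 111 formed 1 connected group at steps 11 to 22 from the outline, and 49.5% of *Il1b*-high spots were at 13 or more steps (21.5% of all spots). In the rIL7 section the largest connected group had 13 spots, at steps 2 to 5, and 30.6% of *Il1b*-high spots were at the edge (16.9% of all spots), compared with 9.91% in control tissue (18.1% of all spots).

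The central group of control tissue was shallow, with a median of 4564.5 UMIs per spot against 9623 over the section. *Ptgs2*-high spots, chosen the same way, had their largest group of 21 spots at steps 17 to 22 in control and of 25 spots at steps 11 to 17 in rIL7 tissue. Of the *Ptgs2*-high spots, 24.3% and 26.5% were also *Il1b*-high, beside 5.00% and 5.03% of all spots. *Il1rn*-high spots shared 12.6% and 15.3% with *Il1b*-high spots, and their largest groups had 4 and 5 spots.

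**Figure D4:**
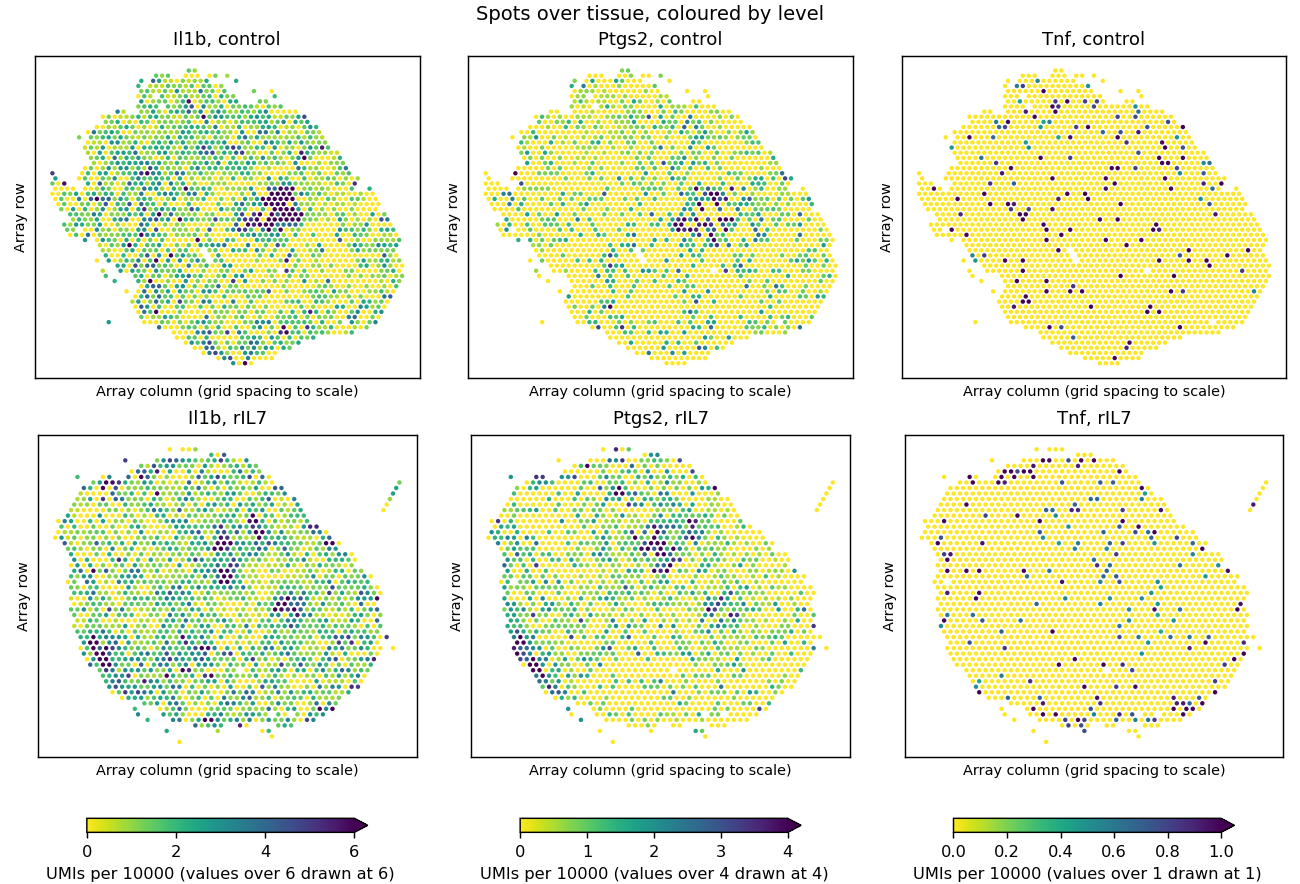
Spots over tissue on the array grid, colored by UMIs per 10000 UMIs of *Il1b*, *Ptgs2* and *Tnf* in control tissue (top) and rIL7 (bottom) section. *Il1b* has 1 central group of 48 high spots in control and smaller groups in rIL7 tissue, where 38.4% of *Tnf* UMIs lie at the edge, which holds 16.9% of spots.

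Other members were higher in *Il1b*-high spots than in the remaining spots. All 7 other members with at least 50 UMIs in the control were at least 1.5-fold higher (8.51% of genes), and all 8 in rIL7 tissue (6.46% of genes). None was 1.5-fold lower, as 9.5% and 9.17% of genes were. *Clec4e* had the highest ratio in both, with 27.6 CPM against 3.79 CPM in control tissue, a ratio of 7.30 (4.30 to 11.9), and 31.1 against 6.54 CPM in rIL7 tissue, a ratio of 4.75 (3.20 to 6.88). *Ptgs2* was at 2.44 (1.91 to 3.09) and 3.37 (2.94 to 3.84), and the antagonist *Il1rn* at 2.50 (1.65 to 3.65) and 2.76 (2.14 to 3.51).

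The cytokine *Il6* was at 3.24 (1.43 to 6.47) and 2.16 (1.23 to 3.56), and *Tnf* at 2.18 (1.10 to 3.91) and 1.90 (1.09 to 3.13). Apart from *Clec4e*, the intervals of the members in control tissue overlapped, so they have no order there. *Nlrp3* in control and *Il18* in rIL7 tissue had intervals that include 1, and *Il1a* had 0 and 7 UMIs in these spots. These spots were shallower, at a median of 6747 against 9765 UMIs in control and 11068.5 against 12989.5 in rIL7 tissue. Among spots of at least 5900 UMIs, a limit chosen after seeing the data, 7 other members were 1.5-fold higher in either section, and the log2 ratio of *Ptgs2* in the control moved from 1.29 to 0.69.

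The neutrophil list was far higher in *Il1b*-high spots, at 1166 against 184 CPM in control tissue, a ratio of 6.35 (5.90 to 6.83), and at 1332 against 387 CPM in rIL7 tissue, a ratio of 3.44 (3.26 to 3.63). In either section 8 of its 9 genes with at least 50 UMIs were 1.5-fold higher, and *Ly6g* was at 0. The other gene in control tissue, *Mmp9*, was 1.5-fold lower in these spots, at 0.604 (0.377 to 0.920). *S100a9*, a calcium-binding alarmin of neutrophils and monocytes, was 9.86-fold (8.89 to 10.9) and 4.86-fold (4.49 to 5.26) higher. Macrophage genes stood at 0.893 (0.858 to 0.929) in control and 1.31 (1.28 to 1.34) in rIL7 tissue, with 0 of 10 past 1.5-fold in both. Monocyte genes were at 0.944 (0.867 to 1.03) and 1.02 (0.964 to 1.08), and T cell genes at 1.10 (0.847 to 1.40) and 1.10 (0.961 to 1.25). In control tissue the monocyte sum was mostly *Fn1*, at 0.887 (0.802 to 0.978). There 1 of the 6 monocyte genes with at least 50 UMIs, *Hp*, was past 1.5-fold, at 2.84 (1.62 to 4.67). The T cell sum of control tissue hid genes going both ways, since of 8 with at least 50 UMIs 3 were 1.5-fold higher and 2 lower. *Thy1* gave 929 of the 1881 UMIs of that list in the control section. Other lists were also higher in the *Il1b*-high spots of control tissue. The hypoxia list was at 1.41 (1.36 to 1.46), with 5 of 8 genes past 1.5-fold. A list of NF-kB target genes was at 1.60 (1.52 to 1.68), with 8 of 12. The part of these cells and lists in the members' levels was not tested.

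**Figure D5:**
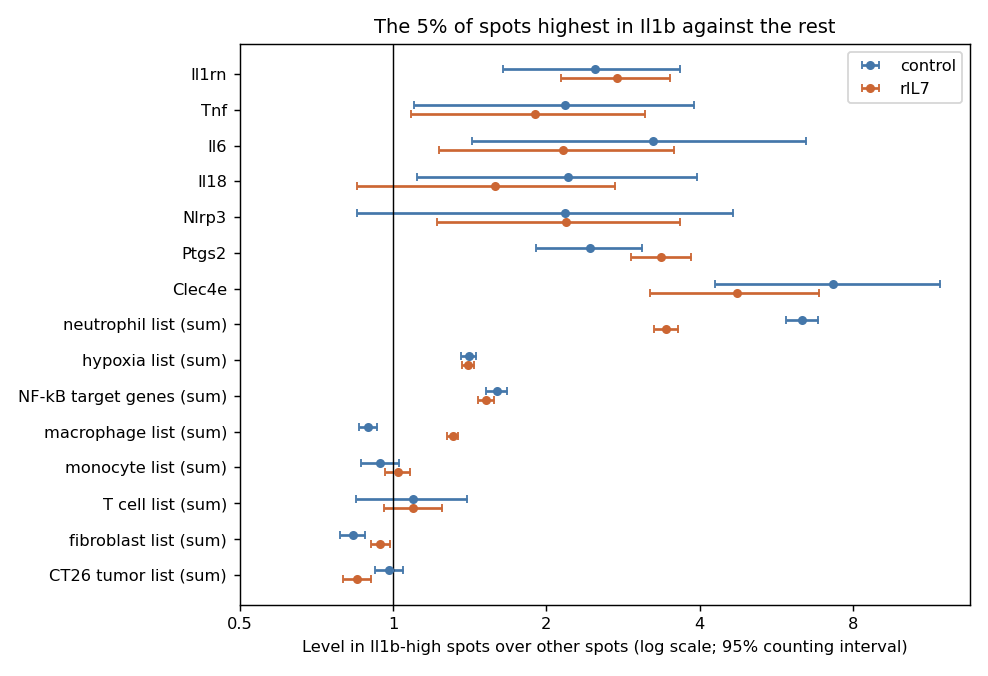
Ratio of the level in *Il1b*-high spots to the level in other spots (log scale) for 7 other members and for summed marker and pathway lists, in control tissue (blue) and rIL7 (orange) section, with 95% counting intervals. The neutrophil list is at 6.35 and 3.44, and the T cell list at 1.10 in both sections.

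Genes whose pattern over spots was most like that of *Il1b* were sought among 10760 genes with at least 100 UMIs in each section, at 5900 UMIs per spot and by the lower Pearson r of the 2 sections (2002 control and 1869 rIL7 spots). The 10 were *S100a9*, *Hcar2*, *S100a8*, *Hdc*, *Slfn4*, *Cxcl2*, *Ndrg1*, *Csf3r*, *Ccl4* and *Cxcl10*. *S100a9* came first with r of 0.178 and 0.263, and *Cxcl10* last with 0.0999 and 0.0959. For *Ptgs2* the 5 nearest were *Cxcl1*, *Hcar2*, *Ndrg1*, *Mt2* and *Ier3*, from 0.182 and 0.165 down to 0.120 and 0.199. For *Il1rn* they were *Slfn4*, *Srgn*, *S100a9*, *Il1b* and *S100a8*, from 0.0924 and 0.106 down to 0.0702 and 0.136. Coefficients this small in sparse counts are a ranking only, and neighboring spots share tissue and depth. Between pairs of members the highest was 0.133, for *Il1b* and *Ptgs2* in rIL7 tissue.

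The wider pathway was read from 9 lists of receptors, signaling genes and targets, in which 104 of 113 genes were tested. At least 1.5-fold higher in rIL7 tissue were 22 (5.98% of all genes), of which 16 had quadrants without overlap (10.2% of all genes), and 3 were 1.5-fold lower (4.15%), none without overlap (10.3%). Of the 22, 12 were NF-kB target genes, out of 17 tested, and 7 of those had quadrants without overlap. Among the 22, 6 had under 50 control UMIs and reached the minimum with the help of the rIL7 section, so that a difference was partly built in, as for *Il1a*. They were the targets *Nos2*, *Saa3*, *Cxcl3*, *Tnfaip6* and *Csf3* and the TNF relative *Lta*, named after their values were seen, which leaves 16 of the 22 and 7 of the 12. The counts without quadrant overlap also include 3 of these 6, the targets *Nos2*, *Saa3* and *Tnfaip6*.

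Among the IL-1 family receptors and relatives, 3 of 10 were at least 1.5-fold higher. *Il1rl1*, the receptor of IL-33 and the most abundant, had 978 and 1025 CPM, a ratio of 1.05 (1.03 to 1.07), and *Il18rap*, an IL-18 receptor chain, 1.12 (1.07 to 1.18). The other IL-18 receptor chain *Il18r1* was 3.46-fold (2.68 to 4.52) higher, and the soluble inhibitor *Il18bp* 1.80-fold (1.61 to 2.00). *Il33*, an alarmin of the IL-1 family, had 163 and 846 UMIs, a ratio of 4.63 (3.91 to 5.51), and was 3.08-fold (2.66 to 3.55) higher at the edge than in the interior of rIL7 tissue.

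Of 11 TNF receptors and relatives 1 was 1.5-fold higher, *Lta*, with overlapping quadrants. *Tnfrsf1a*, the main TNF receptor, stood at 1.10 (1.04 to 1.17) and *Adam17*, the protease that sheds TNF, at 1.13 (1.06 to 1.2). Of 9 genes around IL-6 there were 2, the feedback inhibitor *Socs3* at 1.75 (1.65 to 1.86) and the cytokine *Osm* at 2.48 (1.91 to 3.25). *Stat3* was at 1.10 (1.05 to 1.15) and the oncostatin M receptor gene *Osmr* at 1.44 (1.37 to 1.52).

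None of 9 inflammasome genes and none of 12 IL-1 and Toll signaling genes passed 1.5-fold. *Gsdmd*, the pore former that releases IL-1β, was at 1.02 (0.984 to 1.06), *Txnip*, a thioredoxin-binding protein that can activate NLRP3, at 0.719 (0.697 to 0.742), the kinase *Irak1* at 0.918 (0.873 to 0.965) and the co-receptor *Cd14* at 1.03 (0.962 to 1.10). Of 15 NF-kB subunits and feedback genes 1 did, the feedback inhibitor *Tnfaip3*, at 1.59 (1.39 to 1.81). The subunits *Nfkb2* and *Rela* were at 1.02 (0.990 to 1.05) and 0.941 (0.900 to 0.985).

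Among targets, *Nos2*, the inducible nitric oxide synthase, had 18 and 183 UMIs, a ratio of 9.07 (5.58 to 15.6), and *Saa3*, an acute phase protein, 24 and 232 UMIs, a ratio of 8.62 (5.65 to 13.7). *Lcn2*, which binds siderophores, was at 5.53 (4.14 to 7.52), and *Tnfaip6* at 2.85 (1.88 to 4.46). The neutrophil attractant *Cxcl1* was at 2.64 (2.33 to 2.99), the chemokine *Ccl4* at 1.94 (1.72 to 2.19) and the adhesion molecule *Icam1* at 1.53 (1.38 to 1.70). The abundant chemokines *Ccl2* and *Cxcl10* were at 1.25 (1.22 to 1.28) and 1.48 (1.42 to 1.53), with overlapping quadrants. In the rIL7 section *Saa3* and *Icam1* were 5.41-fold (4.07 to 7.17) and 2.80-fold (2.45 to 3.20) higher at the edge, as *Tnf* was. *Cxcl1* and *Lcn2* stood at 0.618 (0.497 to 0.761) and 0.371 (0.226 to 0.577), on the interior side. *Il6* lay on that side too, with an interval that includes 1. Of 17 targets with at least 50 UMIs in that section, 7 were at least 1.5-fold higher at the edge (10.1% of genes) and 4 lower (8.29% of genes).

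In the prostaglandin list 1 of 10 was at least 1.5-fold higher, the thromboxane synthase *Tbxas1*, at 2.50 (2.11 to 2.98). *Ptges*, the terminal synthase that works with cyclooxygenase-2, was at 1.22 (1.17 to 1.28) and *Alox5ap* of the leukotriene branch at 0.856 (0.816 to 0.898). In the list around *Clec4e*, 2 of 11 were 1.5-fold higher and 3 lower. *Clec4d*, its partner receptor, was at 2.10 (1.85 to 2.39) and *Malt1*, which relays C-type lectin signals, at 1.51 (1.32 to 1.74). *Clec4n*, which encodes Dectin-2, was at 1.23 (1.16 to 1.29) and the shared signaling chain *Fcer1g* at 0.813 (0.795 to 0.832). The 3 lower genes, named after their values were seen, were the related genes *Clec4a1*, *Clec4a2* and *Clec4a3*. They were at 0.648, 0.611 and 0.636 with overlapping quadrants, and whether UMIs were split between them was not tested.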

How the data were processed

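Spatial RNA levels were measured on 1 control and 1 rIL7 tumor section. The authors ran Space Ranger 1.1.0 on the mm10 (GRCm38) reference and deposited raw UMI counts, 1 value for each gene and spot. Spot barcodes, array positions and the in-tissue flag were used as the authors gave them, and image scale factors were not used. Unmapped columns numbered 0. Both sections shared 1702 spot barcodes, which name array positions and not cells.

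Spots over tissue with under 10% mitochondrial UMIs and more than 200 genes were kept, as in the study's methods, which removed 2 control spots and 1 rIL7 spot. UMIs were summed and scaled to CPM with Python 3.11.15, NumPy 2.4.6, SciPy 1.17.1 and pandas 2.3.3. Intervals are exact Poisson for a level, Clopper-Pearson for a share or a ratio of 2 sums, and Wald on the log scale for a ratio of 2 ratios. They cover counting error and leave out differences between animals and sections. Because each group had 1 sample, no test was run. A fold of 1.5 was used as the size rule, over genes with at least 50 UMIs.

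The members and lists were chosen with earlier results of these data known. Cut-offs of 0.05 for the Moran coefficient and 1.2 for dispersion, the comparison of deep steps with steps 3 to 4, ratios between members, the *Ptgs2*-high and *Il1rn*-high spots the edge by quadrant or without 1 quadrant and the thinned Moran coefficient were set after seeing the data. The genes named were the 9 members, the 2 most abundant genes of each pathway list, every list gene at least 1.5-fold apart with quadrants that did not overlap, the 10 genes most like *Il1b* and the 5 most like *Il1rn* and *Ptgs2*, being the other members with at least 300 UMIs in each section. Marker genes were taken from 14 lists, and single genes of the monocyte and neutrophil lists were named after their values were seen.

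Alternatives were no spot filter, more than 1000 genes, TMM (edgeR 4.0.16) and median-of-ratios scaling (DESeq2 1.42.0), both used for scaling factors on the deposited counts and for no test, totals that leave out mitochondrial, haemoglobin and ribosomal protein genes, equal spot weights, edge or interior spots, other edge widths, spots near the limit of the capture area left out, the 1% of highest spots left out, thinning and other shares of *Il1b*-high spots. Coordinates are from RefSeq on GRCm38.p6. Scripts were tested on simulated data.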

Additional observations from a re-analysis of the deposited data

Results flagged for a closer look

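For 4 of the 8 members with at least 50 UMIs in each section the edge over interior ratio lay on opposite sides of 1 in the 2 sections. It was 0.727 in control and 3.43 in rIL7 tissue for *Tnf*, 0.486 and 1.48 for *Clec4e*, 0.916 and 1.38 for *Ptgs2*, and 0.884 and 1.18 for *Il1b*. With 1 section per group these differences were not tested, and the animal, the section plane and the treatment cannot be told apart. The control ratios of *Tnf* and *Ptgs2* have counting intervals that include 1. Without 1 edge quadrant the rIL7 ratio of *Ptgs2* was 0.757, on the same side as the control. *Il1a* was also on opposite sides, at 0.823 and 1.65, with 1 control edge UMI.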

How the results depend on the processing

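No paired analysis was possible because each group held 1 section. Scaling by TMM or by median of ratios shifted every log2 ratio by 0.01. Over all results and alternatives, 399 values stayed within their counting interval, within 0.1 of an index or within 1.5 times the count, 81 moved further and 1 that lay beyond counting error changed sign. This was the edge over interior log2 ratio of *Ptgs2* in rIL7 tissue, at -0.40 without 1 edge quadrant and 0.46 with it. With every spot weighted equally the log2 ratio of *Il1b* between the sections was 0.22 instead of 0.34, and 3 instead of 6 members were 1.5-fold higher. The *Il1b* value was 0.27 in interior spots and 0.69 in edge spots, and that of *Tnf* was -0.41 and 1.83 there, beside 0.13 over whole sections. Thinned to 5900 UMIs, members with a dispersion index of at least 1.2 numbered, of all 9, 1 instead of 6 in control and 2 instead of 4 in rIL7 tissue, a count that thinning lowers by leaving fewer UMIs. In the 1% of spots highest in *Il1b*, 6 and 7 other members were 1.5-fold higher, and in rIL7 tissue 7 of 8 were so under every alternative tried. Otherwise the cause of these moves was not tested. Depth limits *Il1a* (6 control UMIs) and the control edge values of *Clec4e*, *Il6* and *Tnf* (11, 12 and 26 UMIs).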

Other observations

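Across the 9 pathway lists, edge and interior were compared in the same way. At least 1.5-fold higher at the edge were 1 of 96 pathway genes with at least 50 UMIs in control tissue (1.84% of all genes). In rIL7 tissue 23 of 102 were (10.1% of all genes). In turn, 5 and 10 were 1.5-fold lower (4.03% and 8.29% of all genes). The shares over all genes thus differed between the sections in the same direction.

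The neutrophil attractant *Cxcl2* had 63 of its 127 control UMIs in the 111 *Il1b*-high spots, at 82.9 CPM against 2.88 CPM in the other spots, a ratio of 28.7 (20.0 to 41.4). In rIL7 tissue 144 of 453 UMIs lay in the 98 *Il1b*-high spots, at 128 against 12.6 CPM, a ratio of 10.2 (8.29 to 12.4). *Acod1*, which makes itaconate in activated myeloid cells, stood at 9.82 (6.68 to 14.2) and 5.38 (4.06 to 7.04), and *Cxcl1* at 8.33 (6.35 to 10.8) and 2.98 (2.44 to 3.61). *Acod1* was named after its values were seen. The sum of the T cell list was at 1.10 in the same spots of both sections. In control tissue 3 of its 8 genes with at least 50 UMIs were 1.5-fold higher there and 2 lower.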
